A study of Homo sapiens with 12 samples.

Results

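The 7 cyclin-dependent kinase (CDK) inhibitor genes CDKN1A, CDKN1B, CDKN1C, CDKN2A, CDKN2B, CDKN2C and CDKN2D were followed in FDX2-inducible knockout (FDX2-iKO) ES2 cells. They were chosen by gene symbol, after the Ensembl identifiers of the count table had been matched to symbols, and are 7 of the 58735 genes in that table. Enough reads fell on 6 of them to be tested, and CDKN1C, with 0 to 3 counts in a library, was too low to read. ES2 is a human ovarian carcinoma cell line. In the FDX2-iKO derivative the endogenous FDX2 gene, which encodes a mitochondrial ferredoxin needed to build iron-sulfur clusters, is disrupted by genome editing in every condition, and a doxycycline (Doxy)-dependent, HA-tagged FDX2 keeps the cells growing. Removal of Doxy therefore removes FDX2. The 4 conditions were 6 days at 20% O2 with Doxy, 6 days at 20% O2 without Doxy, and 4 days at 20% O2 followed by 3 days at 3% O2, with or without Doxy, each with 3 replicate libraries of poly(A) RNA. Cells at 3% O2 thus spent 1 more day in culture, so oxygen and culture time cannot be told apart. No line without the FDX2 construct was given Doxy, so loss of FDX2 and withdrawal of the drug cannot be told apart either. Of 2 FDX2-iKO ES2 clones the study used clone 1 by default, and no other is named for the RNA.

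CDK inhibitors hold back the kinases that drive the cell cycle. The CIP/KIP proteins p21 (CDKN1A), p27 (CDKN1B) and p57 (CDKN1C) bind complexes of cyclins E and A with CDK2 and, less tightly, others. The INK4 proteins p16 (CDKN2A), p15 (CDKN2B), p18 (CDKN2C) and p19 (CDKN2D) bind CDK4 and CDK6 and keep cyclin D off them, which leaves the retinoblastoma protein unphosphorylated. CDKN2A also encodes ARF, a separate protein read in another frame from its own first exon, which stabilises p53. p21 and p16 are the inhibitors most often measured as marks of senescence, p15 is known as a target of TGF-beta, p27 is kept low mainly by degradation of the protein, and CDKN2C and CDKN2D are known to be transcribed in cycling cells.

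The libraries held 24958386 to 34313637 counted reads, and replicates of each condition differed by more than counting noise. The excess was smallest at 20% O2 without Doxy. There the median chi-square per degree of freedom was 1.32, against 3.3 to 4.54 in the other conditions (counting noise alone gives about 1). FDX2 itself had 2 to 13 counts in each library, too few to check the knockout. At 20% O2 the counts were 5, 2 and 6 with Doxy and 9, 13 and 4 without. At 3% O2 they were 2, 4 and 12 with Doxy and 7, 7 and 5 without. The count of this gene thus shows no rise with Doxy, and loss of FDX2 is taken from the paper, which showed it by Western blot. KRT7, KRT8, KRT18 and PAX8 passed the filter among 8 epithelial markers, while EPCAM, CDH1 and KRT19 had at most 3 counts in each library and WT1 at most 8, and VIM was among the abundant transcripts. Epithelial markers summed to 847 to 903 counts per 1000000 counted reads (CPM) at 20% O2 without Doxy and to 1040 to 1420 in the other libraries. The 4 blood and endothelial markers summed to at most 0.515 CPM in any library. In 3 libraries (replicate 1 at 20% O2 with Doxy, replicate 3 at 3% O2 with Doxy and replicate 2 at 3% O2 without Doxy) transcripts rich in G and C were read more than in the others. Their log2 level rose by 0.172 to 0.191 for each 10 percentage points of GC relative to the mean of all libraries, against −0.15 to 0.0563 in the other 9.

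For CDKN2B, CDKN2C and CDKN2D, the genes that differed after Doxy withdrawal at 20% O2, the 250 bases upstream of a RefSeq transcript start are printed below (GRCh38.p14, 5′ to 3′ on the strand of the gene), with each GGGCGG, read on either strand, in capitals as GGGCGG or CCGCCC. These letters are the core of the binding site of SP1-type factors, and 42.6% of 35116 human promoter windows of this length hold them. RefSeq lists 3 windows for CDKN2C, of which the one with the most CpG pairs is shown.
CDKN2B, chr9:22009306-22009555, minus strand: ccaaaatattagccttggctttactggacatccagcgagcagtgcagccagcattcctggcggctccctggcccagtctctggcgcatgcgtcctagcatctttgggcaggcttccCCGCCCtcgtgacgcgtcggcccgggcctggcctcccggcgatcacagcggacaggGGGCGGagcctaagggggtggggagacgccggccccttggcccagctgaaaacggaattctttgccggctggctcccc
CDKN2C, chr1:50968456-50968705, plus strand: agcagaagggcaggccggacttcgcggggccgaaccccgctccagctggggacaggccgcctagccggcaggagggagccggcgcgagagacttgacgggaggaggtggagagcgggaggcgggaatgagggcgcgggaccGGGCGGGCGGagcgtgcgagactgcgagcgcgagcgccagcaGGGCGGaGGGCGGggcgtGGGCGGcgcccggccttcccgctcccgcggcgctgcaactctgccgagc
CDKN2D, chr19:10568980-10569229, minus strand: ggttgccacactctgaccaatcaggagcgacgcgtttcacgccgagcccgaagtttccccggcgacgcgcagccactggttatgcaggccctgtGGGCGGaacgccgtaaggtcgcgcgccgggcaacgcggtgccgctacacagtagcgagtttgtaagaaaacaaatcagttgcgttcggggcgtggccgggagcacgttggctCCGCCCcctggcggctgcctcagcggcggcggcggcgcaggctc
GC was 66.4% in the CDKN2B window, 77.2% in that of CDKN2C and 67.6% in that of CDKN2D, against a median of 58.0% over all windows. The windows held 18, 35 and 33 CpG pairs (median of all windows 11). GGGCGG occurred 2 times for CDKN2B, 5 times for CDKN2C, overlaps counted, and 2 times for CDKN2D. Members that did not pass at 20% O2 held it too. It occurred 4 times for CDKN1A (76.4% GC, 27 CpG pairs) and 1 time for CDKN1B (64.4% GC, 27 CpG pairs). In the CDKN2A windows, both of 66.8% GC, it occurred 0 and 1 times. These letters therefore do not set the genes that differed apart from the others. Since the CDKN2C window was picked by its CpG pairs, its values do not stand for the gene. The CDKN2C windows not shown had 45.6% and 48.8% GC, 7 and 10 CpG pairs, and GGGCGG 0 and 1 times. None of the letter strings TTTCGCGC, TTTGGCGC, TTTCCCGC and TTTGCCGC, written for E2F sites, was found on either strand in the 9 windows of the 6 tested genes, and 2.79% of all windows held one. An absent match says only that these letters are not in these windows.

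Per length of exon, CDKN2A mRNA was the most abundant of the CDK inhibitor mRNAs in every condition. Levels between genes were compared as CPM, scaled by edgeR's TMM factors, per kilobase of all annotated exons (CPM per kb). With Doxy at 20% O2 the mean level was 47.5 ± 7.89 CPM per kb (SD, n = 3) for CDKN2A, 11.9 ± 1.33 for CDKN2C and 8.12 ± 0.252 for CDKN1B. CDKN2D followed with 4.80 ± 0.774, CDKN2B with 1.97 ± 0.112 and CDKN1A with 1.09 ± 0.12 CPM per kb (SD, n = 3). Libraries of neighbours in this order did not overlap, and the order was the same at 3% O2 with Doxy and at 3% O2 without it. Per kb of the longest transcript, however, CDKN2B and CDKN1A overlapped at 3% O2 with Doxy. CDKN2A took 61.9% to 66.3% of the summed level of the 7 genes, by condition, and 83.2% to 85.8% when each count was divided by the longest transcript instead, since 4329 bases of exon are annotated for the gene and 1283 for its longest transcript.

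At 20% O2 without Doxy the order below CDKN2A changed. CDKN1B, at 8.09 ± 0.0882 CPM per kb (SD, n = 3), stood above CDKN2C, at 6.11 ± 0.21, with no overlap of libraries. CDKN2B, at 3.40 ± 0.155, and CDKN2D, at 3.21 ± 0.208 CPM per kb (SD, n = 3), overlapped and could not be ordered. The ratio of CDKN2B to CDKN2C per kb was 0.168 ± 0.0255 with Doxy and 0.557 ± 0.0256 without at 20% O2 (SD, n = 3). At 3% O2 it was 0.185 ± 0.0364 with Doxy and 0.229 ± 0.0146 without. Only the 20% O2 libraries without Doxy had a ratio above 0.245. The summed level of CDKN2B, CDKN2C and CDKN2D was 12.7 ± 0.0993 CPM per kb in those libraries and 17.8 ± 0.635 to 19 ± 1.38 in the other conditions (SD, n = 3).

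To ask which inhibitor mRNAs changed when FDX2 was lost under ambient oxygen, cells without Doxy were compared with cells with Doxy at 20% O2. CDKN2B mRNA rose, CDKN2C and CDKN2D mRNA fell, and CDKN1A, CDKN1B and CDKN2A did not pass the test. Thus 3 of the 6 tested members differed at an adjusted p under 0.05, beside 35.3% of the 16891 genes tested (17.6% higher, 17.7% lower). In bulk RNA, fewer cells with a transcript and less of it per cell cannot be told apart. The median log2 fold change was −0.06 over the members and 0.01 over all genes tested.

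CDKN2B (ENSG00000147883, chromosome 9, 22002903 to 22009363, minus strand, GRCh38), which encodes p15, had 7.51, 8.41 and 8.11 CPM in replicates 1 to 3 with Doxy and 13.1, 14.4 and 13.8 CPM without. All 3 libraries without Doxy were above all 3 with it. The mean went from 8.01 ± 0.456 to 13.8 ± 0.631 CPM (SD, n = 3), a fold of 1.72 (95% interval 1.52 to 1.95) and a log2 fold change of 0.78 (standard error, SE, 0.0806, adjusted p = 3.18e-05). Libraries did not overlap for 52.3% of all genes tested in this comparison. No annotated exon of another gene overlaps those of CDKN2B.

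CDKN2C (ENSG00000123080, chromosome 1, 50960745 to 50974633, plus strand), the gene of p18, had 44.4, 38.6 and 35.7 CPM with Doxy. Without Doxy it had 19.7, 20.1 and 21 CPM, all below the lowest library with Doxy. Its log2 fold change was −0.96 (SE 0.102, 95% interval −1.19 to −0.74, adjusted p = 3.8e-05), the largest in size among the members. The level fell from 39.5 ± 4.43 to 20.3 ± 0.696 CPM (SD, n = 3), a fold of 0.513 (95% interval 0.439 to 0.599).

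CDKN2D (ENSG00000129355, chromosome 19, 10566462 to 10569059, minus strand), the gene of p19, moved in the same direction as CDKN2C and by less. It had 8.31, 7.36 and 6.00 CPM with Doxy and 5.17, 4.77 and 4.55 CPM without, and the groups did not overlap. The log2 fold change was −0.58 (SE 0.114, adjusted p = 0.00251). The call was lost with a replicate block and a GC correction together (−0.34, adjusted p = 0.0616).

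CDKN1A (ENSG00000124762, chromosome 6, 36676460 to 36687339, plus strand), which encodes p21, was the lowest of the tested members. Its CPM was 3.61, 3.44 and 2.91 with Doxy and 4.30, 4.43 and 4.32 without, from 95 to 140 counts a library. Although the libraries did not overlap, the log2 fold change of 0.39 (SE 0.205, 95% interval −0.06 to 0.84) did not pass the test (adjusted p = 0.166). The fit takes the spread from all 4 conditions, and at 3% O2 with Doxy the replicates ran from 3.11 to 5.59 CPM. The difference passed in 4 of 16 alternative fits. Among them were the fit of only the 6 libraries compared (0.40, adjusted p = 0.0324) and that with a GC correction (0.56, adjusted p = 0.0213). It also passed without the 3 libraries of steep GC slope (0.44, adjusted p = 0.0271). Of its exon bases 4.79% lie opposite the noncoding gene DINOL, and the strand setting of the count is not given in the sources used here.

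CDKN1B (ENSG00000111276, chromosome 12, 12715058 to 12722371, plus strand), the gene of p27, lay between 22.3 and 23.6 CPM in the 6 libraries at 20% O2. Its log2 fold change was 0.00, with a 95% interval of −0.15 to 0.14 (adjusted p = 0.967). By library totals in place of TMM factors, the mean was 7.93 CPM per kb with Doxy and 8.60 without, so its flatness holds on the TMM scale.

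CDKN2A (ENSG00000147889, chromosome 9, 21967753 to 21995301, minus strand) had 245, 186 and 186 CPM with Doxy and 193, 194 and 180 without. The groups overlapped, and the log2 fold change of −0.12 (SE 0.102, 95% interval −0.35 to 0.10) did not pass (adjusted p = 0.397). The high value with Doxy was in replicate 1, a library of steep GC slope, and the estimate was 0.01 without that library and 0.12 with a GC correction. The gene count pools the p16 and ARF transcripts, which start at separate RefSeq windows (chr9:21974858-21975107 and chr9:21995325-21995574), so the gene count gives no value for either. Another 7.88% of its exon bases lie opposite CDKN2B-AS1.

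CDKN1C (ENSG00000129757, chromosome 11, 2883213 to 2885773, minus strand), the gene of p57, had 12 counts in all 12 libraries together. A count of 0 allows up to 3 counts, or 0.0882 to 0.121 CPM by library, and every library of every condition was at or below 3 counts. No fold was computed, and a difference was not detectable at this depth.

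**Figure D1:**
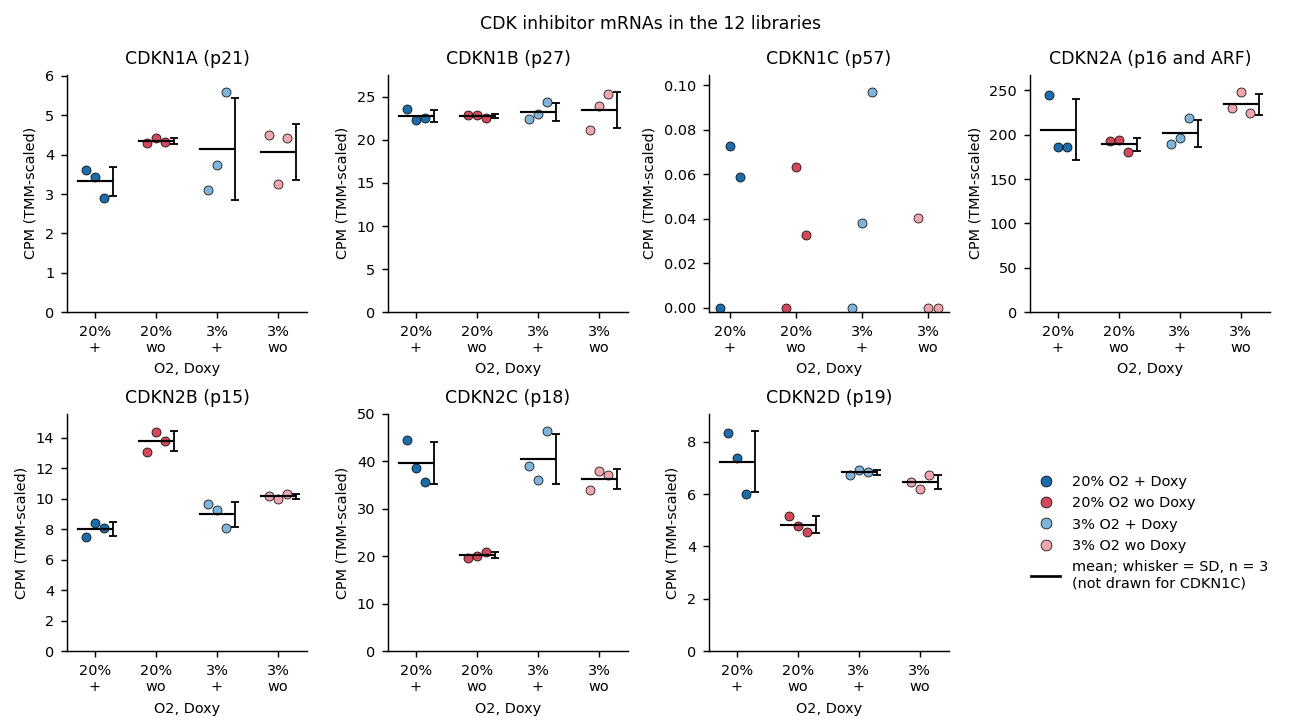
CPM (TMM-scaled) of the 7 CDK inhibitor genes in each of the 12 libraries, by oxygen and Doxy, with the mean and SD (n = 3). CDKN2B is highest and CDKN2C and CDKN2D lowest at 20% O2 without Doxy, where none of the 3 genes overlaps any other condition.

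The same withdrawal of Doxy was examined in cells moved to 3% O2. Of the 6 tested members 0 differed (by the edgeR fit over all genes) and 0 by DESeq2, beside 7.31% of all genes tested (4.2% higher, 3.11% lower). An unadjusted p under 0.05 was found for 0 members, beside 3901 of the 16891 genes tested. CDKN2B had 9.65, 9.24 and 8.08 CPM with Doxy and 10.2, 10 and 10.3 without. These libraries did not overlap, as for 24.6% of all genes tested, and the log2 fold change was 0.18 (95% interval 0.00 to 0.36, adjusted p = 0.22). CDKN2C had 39.1, 36.1 and 46.3 CPM with Doxy and 34, 37.9 and 37.2 without, an overlap of the groups, with a log2 fold change of −0.16 (95% interval −0.38 to 0.06, adjusted p = 0.38). With a GC correction this decrease passed, at −0.20 (adjusted p = 0.0206).

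CDKN2D stood at 6.73, 6.91 and 6.82 CPM with Doxy and 6.44, 6.19 and 6.74 without at 3% O2 (log2 fold change −0.08, 95% interval −0.33 to 0.17). CDKN1A had 3.11, 3.74 and 5.59 CPM with Doxy and 4.51, 3.25 and 4.43 without, and its interval of −0.48 to 0.42 was the widest. Its 5.59 CPM came from a library of steep GC slope, and without the 3 such libraries the log2 fold change was 0.37 (adjusted p = 0.132). CDKN1B lay between 21.2 and 25.3 CPM, with an interval of −0.14 to 0.16. CDKN2A had 190, 196 and 219 CPM with Doxy and 230, 248 and 225 without, which did not overlap, and a log2 fold change of 0.22 (95% interval −0.01 to 0.44, adjusted p = 0.23). Without the 3 libraries of steep GC slope the same 0.22 passed the test (adjusted p = 0.015).

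A direct test asked whether oxygen altered the response to FDX2 loss, taken as the log2 response at 3% O2 minus that at 20% O2. The responses of CDKN2B and CDKN2C differed, which is 2 of 6 members beside 7.29% of all genes tested (3.21% higher, 4.08% lower). The difference for CDKN2B was −0.61 (SE 0.114, 95% interval −0.86 to −0.36, adjusted p = 0.0104), as the rise at 20% O2 was larger than the value at 3% O2. For CDKN2C it was 0.81 (SE 0.142, 95% interval 0.50 to 1.12, adjusted p = 0.00741), as the fall at 20% O2 was larger. Neither passed where at least a 2-fold difference was required, and both kept their sign and passed in each of the 20 alternative fits, with adjusted p-values of 0.00118 to 0.0482 and 8.82e-06 to 0.0264. CDKN2D had a difference of 0.50 (95% interval 0.15 to 0.85) that did not pass (adjusted p = 0.0887), so its responses are not shown to differ, and without replicate 3 at 20% O2 with Doxy it was 0.62 (adjusted p = 0.0221). Differences of 0.34 for CDKN2A (95% interval 0.02 to 0.66, adjusted p = 0.186), −0.42 for CDKN1A (−1.06 to 0.22) and 0.02 for CDKN1B (−0.19 to 0.23) did not pass.

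**Figure D2:**
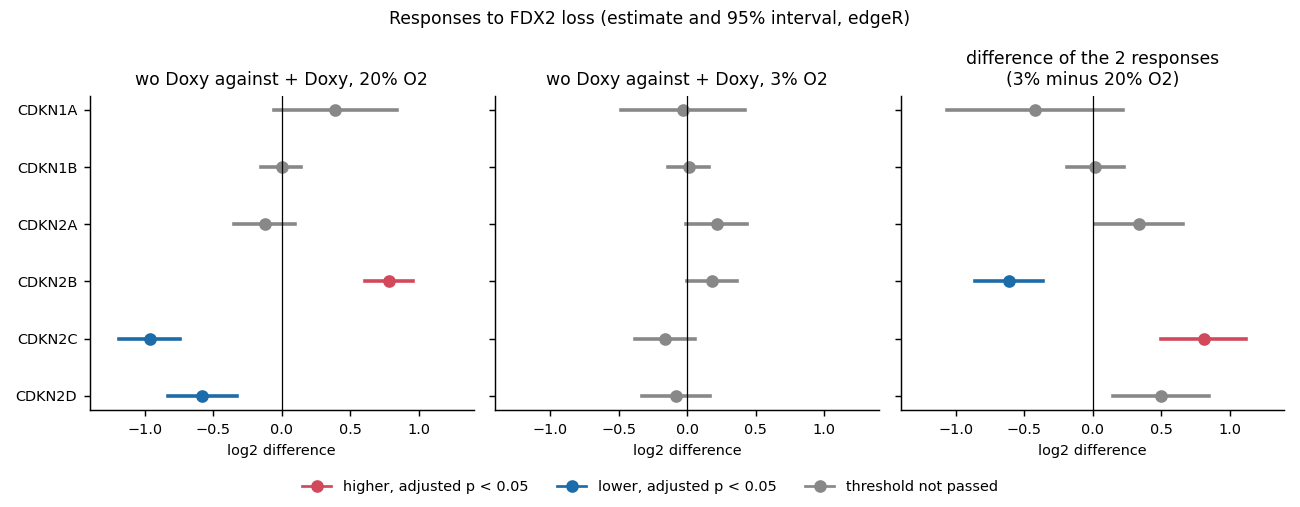
Log2 differences of the 6 tested members with 95% intervals from edgeR, for Doxy withdrawal at 20% O2, at 3% O2, and for the difference of these responses. CDKN2B (0.78) and CDKN2C (−0.96) lie far from 0 at 20% O2 and nearer to it at 3% O2 (0.18 and −0.16), and their differences of −0.61 and 0.81 passed the test.

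Oxygen itself was compared within each Doxy condition, with the control libraries of the comparisons above used again. With Doxy, 0 of 6 members differed between 3% and 20% O2, and 0 by DESeq2, beside 2.02% of all genes tested (1.63% higher, 0.385% lower). An unadjusted p under 0.05 was found for 0 members, beside 2193 of the 16891 genes tested. CDKN2C had a log2 fold change of 0.04 (95% interval −0.18 to 0.25), CDKN2D of −0.08 (−0.33 to 0.17), CDKN2A of −0.03 (−0.26 to 0.19) and CDKN1B of 0.03 (−0.12 to 0.18). CDKN2B, at 0.17 (−0.01 to 0.35), and CDKN1A, at 0.32 (−0.13 to 0.77), had positive estimates. The libraries overlapped for all 6 members, and 15.4% of all genes tested had no overlap.

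Without Doxy, 4 of 6 members differed between 3% and 20% O2, beside 25.8% of all genes tested (13.9% higher, 11.9% lower), with CDKN2A, CDKN2C and CDKN2D higher and CDKN2B lower at 3% O2. CDKN2C was higher by a log2 fold change of 0.84 (SE 0.102, adjusted p = 0.000242), from 20.3 ± 0.696 to 36.4 ± 2.09 CPM (SD, n = 3). CDKN2B was lower at −0.44 (SE 0.0801, adjusted p = 0.00292), from 13.8 ± 0.631 to 10.2 ± 0.113 CPM (SD, n = 3). CDKN2D was higher at 0.42 (SE 0.115, adjusted p = 0.0215), and CDKN2A at 0.31 (SE 0.102, adjusted p = 0.0465). In all 4 the libraries of the conditions did not overlap, as for 49.4% of all genes tested. CDKN1A (−0.10, 95% interval −0.55 to 0.35) and CDKN1B (0.05, −0.10 to 0.20) did not pass.

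The calls of CDKN2B and CDKN2C in this comparison were kept in each refit and lost where at least a 2-fold change was required, while those of the other genes were also lost in refits. CDKN2A had an adjusted p = 0.0791 with a replicate block. Same-numbered libraries of these conditions deviated together, but the labels give no pairing, so whether the block belongs here is not settled. The adjusted p of CDKN2A was 0.064 to 0.145 when any 1 of the 6 libraries was left out. With a GC correction its log2 fold change was 0.00 (adjusted p = 0.965), and without the 3 libraries of steep GC slope 0.26 (adjusted p = 0.0017). Without Doxy, GC slopes were −0.15 to −0.0863 at 20% O2 and 0.0248 to 0.182 at 3% O2, with no overlap. Leaving out the steep libraries keeps this separation, so base composition and condition cannot be told apart in that fit. CDKN2D had 0.11 (adjusted p = 0.536) with a GC correction, and lost its call without replicate 2 (adjusted p = 0.064) or replicate 3 (0.0838) at 20% O2, or without replicate 3 at 3% O2 (0.067).

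Base composition moved with the levels of some members and less so with those of others. CDKN2A transcripts are 61.4% GC, and within each condition that had a library of steep GC slope, that library held the highest CDKN2A level (245, 219 and 248 CPM). CDKN2C, at 58.1% GC, was also highest in those libraries of their conditions (44.4, 46.3 and 37.9 CPM), and CDKN2B, at 44.6% GC, was lowest (7.51, 8.08 and 10 CPM). In the same order, CDKN2D, at 61.3% GC, was highest, in the middle and lowest (8.31, 6.82 and 6.19 CPM). CDKN1A, at 58.1% GC, was highest, highest and lowest (3.61, 5.59 and 3.25 CPM). CDKN1B, at 47.7% GC, was highest, highest and in the middle (23.6, 24.4 and 23.9 CPM). The part of base composition in these levels was not tested beyond the GC correction and the fits without those libraries. Without them, the log2 fold changes after FDX2 loss at 20% O2 were 0.73 for CDKN2B (adjusted p = 6.61e-05), −0.88 for CDKN2C (adjusted p = 8.6e-06) and −0.48 for CDKN2D (adjusted p = 0.00824). Over all 16 alternative fits, the GC correction among them, they ran from 0.73 to 0.82, −1.04 to −0.79 and −0.70 to −0.34. The difference of responses, over 20 fits, ran from −0.67 to −0.55 for CDKN2B, 0.59 to 0.92 for CDKN2C and 0.18 to 0.62 for CDKN2D.

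**Figure D3:**
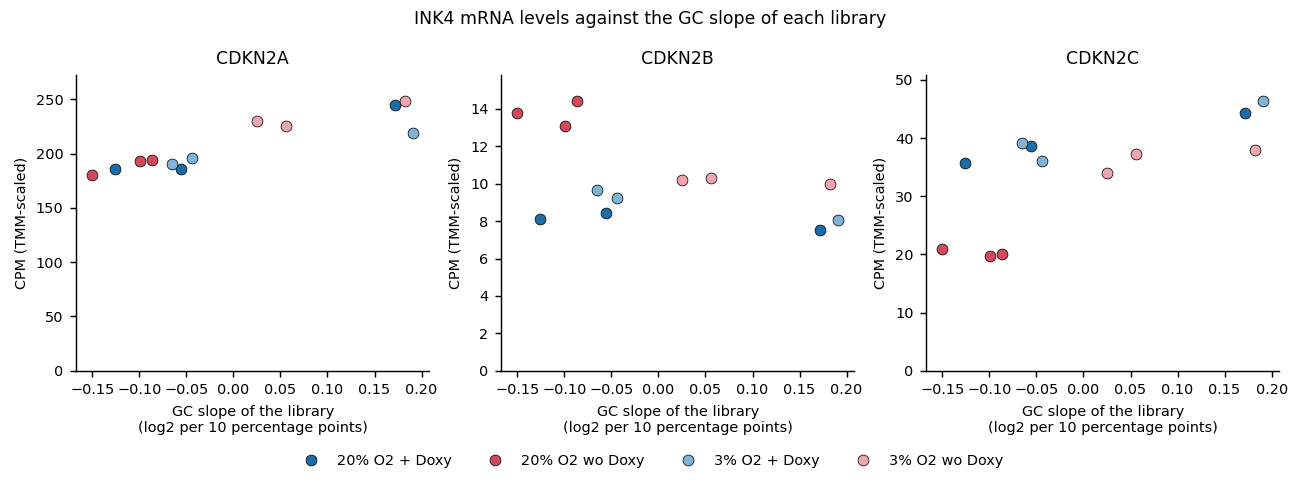
CPM (TMM-scaled) of CDKN2A, CDKN2B and CDKN2C in each library against the library's GC slope, the change of log2 level per 10 percentage points of transcript GC relative to the mean library. The 3 libraries at 0.172 to 0.191 hold the highest CDKN2A level of their conditions, and CDKN2B and CDKN2C at 20% O2 without Doxy stay apart from the other conditions at the left of each panel.

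Over the 12 libraries the log2 levels of CDKN2C and CDKN2D went together (Pearson r = 0.907), and CDKN2B went against both (r = −0.928 with CDKN2C and −0.893 with CDKN2D). These coefficients describe 4 conditions of 3 libraries that share depth and base composition, and the 20% O2 libraries without Doxy stand at one end of each. CDKN1A and CDKN1B correlated with no other member beyond 0.443 in size. The genes most like CDKN2C among 10613 genes with a mean of 5 CPM or more were PIF1, a DNA helicase (r = 0.993), NSD2, a histone methyltransferase (0.992), and C2CD2 (0.99). Those most like CDKN2B were ATP6V1B2, a subunit of the vacuolar proton pump (0.982), PTGFR, a prostaglandin receptor (0.98), and LEPROT (0.977). For CDKN2D they were NAA10 (0.969), ABT1 (0.957) and MIF4GD (0.95). Closest to CDKN2A were STUB1 (0.973), GPR137 (0.962) and PRKAR1B (0.959), whose transcripts are 62.4% to 65.0% GC. The likeness was lower for CDKN1A (MSS51, 0.89, PITPNA, 0.883 and MIPEP, 0.879) and for CDKN1B (ERP29, 0.869, MAVS, 0.858 and COMMD9, 0.857).

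CDKN2A and CDKN2B lie next to each other, with starts 14.1 kb apart, and after FDX2 loss at 20% O2 CDKN2B passed the test and CDKN2A did not. Of 10 tested genes around them 1 was higher and 2 were lower after FDX2 loss at 20% O2, with a median log2 fold change of −0.11. These 3 of 10 stand near the 35.3% of all genes called. The nearest, CDKN2B-AS1, a noncoding RNA that runs through CDKN2B on the opposite strand, had 3.84, 4.38 and 4.03 CPM with Doxy and 3.15, 3.79 and 3.71 without (−0.20, SE 0.117, adjusted p = 0.211). MTAP, an enzyme of methionine salvage often lost in tumours together with CDKN2A, fell by 0.29 on the log2 scale (SE 0.0701, adjusted p = 0.00843), and FOCAD fell by 0.18 (adjusted p = 0.0297). On the other side, DMRTA1 rose by 0.38 (adjusted p = 0.0445), and ELAVL2 had 0.57 (SE 0.222, adjusted p = 0.0656). KLHL9 (0.02), HACD4 (−0.17), MLLT3 (−0.09), MIR31HG (−0.13) and IFNE (0.43) did not pass, and CDKN2A-DT, with at most 4 counts a library, was not tested. In cells without Doxy, MLLT3 (0.53), MIR31HG (0.45) and FOCAD (0.23) were higher at 3% than at 20% O2, beside 13.9% of all genes, and CDKN2B-AS1 (0.27, adjusted p = 0.114) was not called. The fall of CDKN2B there had no counterpart past the threshold among these 10 genes.

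Among the partners of the inhibitors, the G1/S cyclins and CDKs had 7 of 10 tested genes lower and 0 higher after FDX2 loss at 20% O2, with a median of −0.42, beside 17.7% of all genes lower and 17.6% higher. CCNA2, the cyclin of S phase, fell from 110 to 51.7 CPM (−1.08, SE 0.058, adjusted p = 4.11e-07), PCNA, the replication clamp that p21 also binds, had −0.88, and CCNE1 had −0.60 (adjusted p = 0.00106). CDK4 (−0.11, adjusted p = 0.138) and CDK6 (0.03, adjusted p = 0.805), the kinases that the INK4 proteins bind, did not pass. Both were named after their values were seen. At 3% O2, 4 of the 10 were lower (3.11% of all genes), among them PCNA (−0.50) and CCNE1 (−0.41), and the response differed between the oxygen levels for CCNA2 (0.78, adjusted p = 0.000531) and PCNA (0.38, adjusted p = 0.00982). With Doxy, 0 of the 10 differed between 3% and 20% O2, beside 2.02% of all genes called. An unadjusted p under 0.05 was found for 0 of the 10, beside 2193 of the 16891 genes tested. Without Doxy 5 were higher at 3% O2 (13.9% of all genes), with CCNA2 at 0.69, CCND3 at 0.50 and CCNE1 at 0.32.

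Of the 13 retinoblastoma and E2F family genes, on which these kinases act, 6 fell and 2 rose after FDX2 loss at 20% O2 (median −0.30), beside the same 17.7% and 17.6% of all genes. E2F2 had −0.97 (adjusted p = 0.0205, mean level 1.41 CPM with Doxy), E2F1 −0.83 (adjusted p = 0.000869) and TFDP1, the E2F partner, −0.60. At 3% O2 E2F8 passed (−0.34) and the other 12 did not, beside 7.31% of all genes called. TFDP1 was among the 3 genes higher at 3% than at 20% O2 without Doxy (0.48, with 1 lower, beside 25.8% of all genes called), and its response differed between the oxygen levels by 0.46 (adjusted p = 0.0067).

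Of 12 ubiquitin ligase subunits that mark p21, p27 or p57 for degradation, 6 were lower and 0 higher after FDX2 loss at 20% O2 (median −0.27), beside 17.7% of all genes lower and 17.6% higher. SKP2, the subunit that recognises p27, had 103, 110 and 109 CPM with Doxy and 55.2, 49.5 and 52.9 without (−1.03, SE 0.0533, adjusted p = 3.31e-07), with no overlap, whereas CDKN1B mRNA was flat. CDC20, an activator of the anaphase-promoting ligase, had −0.95 and UBAC1 −0.74. At 3% O2 SKP2 alone of the 12 passed (−0.40, adjusted p = 0.00153), beside 7.31% of all genes called, and its response differed between the oxygen levels by 0.64 (adjusted p = 0.00101). The proteins p21, p27 and p57 were not measured here.

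Regulators of the INK4 genes, mostly polycomb subunits that silence CDKN2A and CDKN2B in growing cells, gave 5 lower and 2 higher of 12 after FDX2 loss at 20% O2 (median −0.20), beside 35.3% of all genes called. EZH2, the polycomb methyltransferase, had −0.50 (adjusted p = 0.000124), ID1, an inhibitor of transcription factors that act on CDKN2A, −0.55 (adjusted p = 0.0237), and CBX7, another polycomb subunit, 0.46 (adjusted p = 0.00619). At 3% O2, 0 of the 12 passed, beside 7.31% of all genes called. An unadjusted p under 0.05 was found for 4 of the 12, beside 3901 of the 16891 genes tested. Of 17 tested transcription factors known to act on CDKN1A, CDKN1B or CDKN2B, 7 rose and 2 fell at 20% O2 (median 0.25), beside 17.6% and 17.7% of all genes. MXI1 (0.98) and MXD1 (0.97), antagonists of MYC, and TP63, a relative of p53 (0.84), led them. At 3% O2, 4 rose, among them ATF4 (0.52), TP63 (0.48) and FOXO4 (0.45), and 1 fell, beside 4.2% and 3.11% of all genes. The responses of MXD1 (−0.97, adjusted p = 0.000927) and MXI1 (−0.77, adjusted p = 0.00105) differed between the oxygen levels.

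CDKN1A is the best known target of p53, and 19 other p53 target genes were tested beside it. After FDX2 loss at 20% O2, 6 were higher and 3 lower (median 0.09), which is 9 of 19 called beside 35.3% of all genes. TP53INP1 rose from 4.85 to 18.2 CPM (1.91, adjusted p = 9.13e-07) and SESN2, which is also a target of ATF4, from 14.3 to 47.8 CPM (1.74, adjusted p = 4.36e-05), while FAS had 0.51. At 3% O2 TP53INP1 was higher (0.68) and MDM2, the ligase that degrades p53, was lower (−0.30, adjusted p = 0.0451), beside 7.31% of all genes called. In cells without Doxy 6 of the 19 were lower and 1 higher at 3% than at 20% O2 (11.9% and 13.9% of all genes), with SESN2 at −1.39, TP53INP1 at −0.90 and PHLDA3 at 0.50. CDKN1A passed in none of these comparisons in the reported fit, which used all 12 libraries and no GC correction. For FDX2 loss at 20% O2 it passed in 4 of 16 alternative fits, among them that with a GC correction.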

How the data were processed

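Poly(A) RNA of 12 libraries (4 conditions of 3, named biological replicates by the submitters) was read as 1 gene table of counts. The deposited counts were made by the authors with STAR and featureCounts on GRCh38. Versions, annotation, strand setting and treatment of multi-mapping reads are not given in the sources used here. Identifiers were matched to symbols, exons and GC with GENCODE 29, and promoter windows were taken from RefSeq.

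The filter was filterByExpr of edgeR, set to a count of 10 and a total of 15, and left 16891 of 58735 genes. Counts were scaled by TMM and fitted with 4 condition means (edgeR 4.0.16, R 4.3.3, quasi-likelihood F-test, 8 residual degrees of freedom), and p-values were adjusted by Benjamini and Hochberg over all genes tested. A gene was called at an adjusted p under 0.05. All adjusted p-values are from this test unless DESeq2 (1.42.0) is named. Standard errors are the absolute log2 fold change over the square root of F, with 95% intervals from the t distribution. CPM used TMM-scaled totals. The GC correction subtracted, per library, a lowess curve (span 0.3) of log2 CPM on transcript GC. A steep GC slope was one above 0.1. The test was also run on counts simulated from the means, library sizes and spread of these data, which is no independent check of it. Intervals cover the spread between these libraries, and limits from counts of 0 cover counting error only.

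The members, gene lists and tests were chosen with earlier results of these data known. A further epithelial marker of the lists is not reported here. Named were the 7 members in every comparison, at most the 3 called genes of largest change per list and comparison, the genes around CDKN2A and CDKN2B, and for likeness the 3 genes of highest Pearson r. Alternatives were DESeq2 size factors, DESeq2's Wald test, no filter, at least 10 counts in every library, at least a 2-fold change, a replicate block, a GC correction, the block with a GC correction, only the libraries compared, and each library left out. Chosen after seeing the data were only the libraries compared with a block, and the fit without the 3 libraries of steep GC slope. Replicate numbers were held to pair libraries where each same-numbered pair deviated together from its condition means with a correlation over 0.1. This held only between 20% and 3% O2 without Doxy (0.363, 0.247 and 0.353), where the pairing comes from the data and not from the labels. Some libraries of unlike number deviated together more closely (0.818 for replicate 1 at 20% O2 and replicate 3 at 3% O2, both with Doxy). Such correlations therefore do not establish a pairing.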

Additional observations from a re-analysis of the deposited data

Results flagged for a closer look

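CDKN2B and CDKN2C were singled out because a test of the difference itself (edgeR's quasi-likelihood test) gave them unequal responses to FDX2 loss at 3% and 20% O2. The response at 3% O2 minus that at 20% O2 was −0.61 on the log2 scale for CDKN2B and 0.81 for CDKN2C. At 20% O2 the libraries with and without Doxy did not overlap for either gene, and at 3% O2 they did not overlap for CDKN2B and overlapped for CDKN2C. Conditions of 3 libraries were too small for a test of single outlying libraries.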

How the results depend on the processing

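Of the counts of changed CDK inhibitors under alternatives, 77 stayed within 1.5 times of the reported value and 12 moved. CDKN2B and CDKN2C kept direction and call under every refit at 20% O2, at 3% against 20% O2 without Doxy and in the difference of responses. With at least a 2-fold change required, 0 members were called in each of these comparisons. After FDX2 loss at 3% O2, 1 member was called with a GC correction, 1 with a replicate block and GC correction (CDKN2C, −0.20 in both) and 1 without the libraries of steep GC slope (CDKN2A), against 0 reported. At 3% against 20% O2 without Doxy, 2 members were called with no filter, 2 with a GC correction, 2 with the block and GC correction, and 2 to 3 with 1 library left out (2 without replicate 2 or 3 at 20% O2 or replicate 3 at 3% O2), against 4. The replicate block, a pairing that the labels do not give, left 3 there and took the call from CDKN2A (adjusted p = 0.0791, edgeR). It changed no other call of a member there, and elsewhere, where the numbers did not pair the libraries, it changed none.

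Directions turned only for values that had not passed, except CDKN2A at 3% against 20% O2 without Doxy (0.00 with a GC correction, −0.01 with block and GC correction). After FDX2 loss at 20% O2 CDKN2A had 0.12 with a GC correction, 0.12 with the block too, 0.01 without the libraries of steep GC slope and −0.19 to 0.01 with 1 library left out. CDKN1B, near 0 throughout, turned there to 0.01 (10 counts in every library, or without steep libraries) and 0.02 (GC correction, with or without block), with −0.03 to 0.01 by leaving 1 out. At 3% O2 its value turned to −0.01 (DESeq2 size factors, or only the libraries compared), −0.02 (no filter, or only the libraries compared with a block) and 0.00 (DESeq2), with −0.05 to 0.08 by leaving 1 out. CDKN1A at 3% O2 had 0.37 without steep libraries and −0.20 to 0.25 by leaving 1 out. At 3% against 20% O2 with Doxy, without steep libraries, CDKN2A had 0.05 and CDKN2D 0.03, and leaving 1 out gave −0.10 to 0.10 for CDKN2A, −0.20 to 0.02 for CDKN2D, −0.07 to 0.12 for CDKN2C and −0.01 to 0.06 for CDKN1B. Without Doxy, CDKN1A had 0.03 without steep libraries and −0.17 to 0.04 by leaving 1 out, and CDKN1B −0.01 to 0.11. The difference of responses for CDKN1B was −0.01 with 10 counts in every library and −0.04 to 0.09 by leaving 1 out. The causes were not tested.

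Over all genes, calls after FDX2 loss at 3% O2 numbered 1235, and 3253 with a GC correction, 2763 with block and GC correction, 2610 without steep libraries, 1944 by DESeq2, 678 with no filter, 676 with the block, 218 and 1 (with a block) with only the libraries compared, and 581 to 1605 with 1 library left out. Those at 3% against 20% O2 with Doxy (341) became 1265, 961, 520, 629, 230, 218, 128, 12 and 190 to 388 in the same order. Those of the difference of responses (1231) became 3093, 2622, 2568, 1916, 672, 615 and 520 to 2191 (libraries left out), and leaving 1 library out gave 2321 to 4200 at 3% against 20% O2 without Doxy (4360). A 2-fold minimum left 910 after FDX2 loss at 20% O2, 118 at 3% O2, 186 in the difference of responses, and 92 with and 451 without Doxy at 3% against 20% O2. Depth limited CDKN1C throughout, and CDKN1A and CDKN2D had at most 173 and 260 counts a library.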
